A study of Mus musculus with 36 samples.

Results

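The axon growth and neurofilament genes described here were 10 mouse genes, Sprr1a, Gap43, Basp1, Stmn2, Stmn4, Tubb3, Tubb2b, Nefl, Nefm and Nefh. They were chosen by name, as the rows of the deposited raw table whose Ensembl identifiers carry these symbols in the GENCODE M21 annotation, and they made up 10 of its 55487 genes. No measured value entered the rule. The series, on female mice by its title, held 36 RNA sequencing libraries from 2 tissues, the spinal cord (cord) and the dorsal root ganglion (DRG). The series as a whole is described as dorsal spinal cord, but the labels of the libraries say spinal cord only, so which part was taken is not settled. The 4 groups of each tissue were knockout (KO) mice after spared nerve injury (SNI; 4 libraries), wild-type (WT) mice after SNI (4 libraries), naive KO mice (5 libraries) and naive WT mice (5 libraries). In SNI some branches of the sciatic nerve are cut and the sural branch is spared, which leaves lasting pain in the paw. Strain, age, the time after injury, the side taken and the construction of the knockout allele are not given in the labels. Nor do the labels state that libraries are from different animals, so p-values measure the spread between libraries only. Libraries are called by the letter and number in their titles, from A1 to F8. Naive libraries are labelled as not treated, and no sham surgery is labelled. SNI libraries all have the letters E and F and naive libraries A to C. Nerve injury, surgery as such and any difference between these sets of libraries therefore cannot be told apart.

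Axons grow again after a cut only when the sensory neuron in the ganglion switches on a program of growth genes. Gap43 and Basp1 encode membrane-bound proteins of the growth cone, and Sprr1a encodes a small proline-rich protein that is best known from the skin and that promotes axon outgrowth when injured sensory neurons make it. Stmn2 and Stmn4 encode stathmins, which bind tubulin and keep growing microtubules dynamic, and Tubb3 and Tubb2b encode beta tubulins of neurons. Nefl, Nefm and Nefh encode the light, medium and heavy chains of the neurofilament, the intermediate filament that sets the width of large myelinated axons and whose transcripts are known to fall in sensory neurons after axotomy.

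In the GRCm38 build, Sprr1a lay at chr3:92483952-92485895 on the minus strand, Gap43 at chr16:42248442-42340651 on the minus strand and Basp1 at chr15:25363277-25413764 on the minus strand. Stmn2 lay at chr3:8509360-8561606 on the plus strand, Stmn4 at chr14:66344296-66361680 on the plus strand, Tubb3 at chr8:123411424-123422015 on the plus strand and Tubb2b at chr13:34126748-34130466 on the minus strand. Nefh lay at chr11:4938754-4948064 on the minus strand. Nefl (chr14:68083863-68089095, plus strand) and Nefm (chr14:68082590-68124846, minus strand) overlap on opposite strands, and 1108 of the 3380 exonic bases of Nefl and the 5782 exonic bases of Nefm were in both genes. The library kit keeps strand, but the strand setting of the counting is not given in the sources used here. Estimated counts of Nefl, Nefm and Tubb2b held fractions of a read in 35 of 36 libraries, so that some of their reads had been split with another gene or transcript. Counts of Sprr1a, Gap43, Basp1, Stmn4 and Nefh were whole numbers in every library. Tubb3 also overlaps an annotated readthrough gene.

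Promoter sequences were held in the RefSeq table of build GRCm38.p6 for 3 of the 10 members, from 250 bases before to 50 bases after the start of transcription. They are shown because Sprr1a was the member with the lowest level in naive ganglia and one of the highest after injury, while Tubb3 and Basp1 were transcribed in every library and rose by less. Each is written from 5′ to 3′ in the direction of the gene, with the motifs found in capitals: TGANTCA (the core bound by AP-1 factors), TATAAA and GGGCGG (the GC box bound by Sp1).
Sprr1a promoter (chr3:92485832-92486131, minus strand): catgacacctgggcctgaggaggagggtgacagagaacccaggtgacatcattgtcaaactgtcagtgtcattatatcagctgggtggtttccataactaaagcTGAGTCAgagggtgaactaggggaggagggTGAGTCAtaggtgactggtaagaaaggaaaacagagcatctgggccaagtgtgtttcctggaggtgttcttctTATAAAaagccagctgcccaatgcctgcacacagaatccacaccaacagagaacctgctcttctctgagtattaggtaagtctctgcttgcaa
Tubb3 promoter (chr8:123411303-123411602, plus strand): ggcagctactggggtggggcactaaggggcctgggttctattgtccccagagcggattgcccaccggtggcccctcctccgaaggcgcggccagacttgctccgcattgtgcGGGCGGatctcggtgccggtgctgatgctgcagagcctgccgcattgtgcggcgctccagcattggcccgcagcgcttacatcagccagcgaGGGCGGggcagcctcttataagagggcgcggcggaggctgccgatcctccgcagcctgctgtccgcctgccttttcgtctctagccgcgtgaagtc
Basp1 promoter (chr15:25413715-25414014, minus strand): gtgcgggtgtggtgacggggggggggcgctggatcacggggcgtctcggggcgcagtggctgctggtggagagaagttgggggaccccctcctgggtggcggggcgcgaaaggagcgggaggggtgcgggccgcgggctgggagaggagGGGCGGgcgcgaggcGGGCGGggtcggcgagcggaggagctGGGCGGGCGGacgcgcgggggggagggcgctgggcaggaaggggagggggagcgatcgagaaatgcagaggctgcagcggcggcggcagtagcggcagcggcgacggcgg
The Sprr1a promoter held the AP-1 core at positions -146 and -116 from the start, and TATAAA at -43 on the strand of the gene. The pattern TGANTCA reads the same on both strands, so its matches have no direction. The AP-1 core was present on either strand in 7.79% and TATAAA in 13.6% of the 32544 promoters in the table. GGGCGG was found at -138 and -46 in Tubb3 and at -101, -86, -60 and -56 in Basp1, where the last 2 overlap, and 35.9% of all promoters held it. The cyclic AMP response palindrome TGACGTCA was searched for too and was in none of the 3 sequences, against 1.8% of all promoters. These matches describe the letters of the windows and are not measured binding sites.

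Libraries held 21.34 to 27.27 M estimated reads. Naive DRG libraries A2 and A4 are titled wild type but have knockout in the genotype field, which was followed. The tissue labels were checked with markers: Scn10a, a sodium channel of nociceptors, had 328 to 1111 CPM (counts per M reads, scaled within a tissue) in DRG and at most 1.5 CPM in cord, while the myelin gene Mobp had 1.54 to 15.4 CPM in DRG and 2315 to 3115 CPM in cord. Chat and Slc18a3, genes of cholinergic neurons such as motor neurons, had 6.38 to 15.3 CPM and 5.56 to 22.0 CPM in the cord libraries, and motor neurons lie in the ventral cord. In RNA of whole tissue, fewer cells of a type and less RNA per cell cannot be told apart. Sprr1a passed the filter on low counts only through its SNI libraries, so that its difference between injured and naive tissue was bound to appear among the genes tested.

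Levels can be compared between genes only per length, and between tissues only on a shared scale. They are given here as CPM per kilobase of exon on 1 scale for both tissues (mean ± SD). In naive WT DRG the members ranked Nefl (924 CPM per kb), Tubb3 (813), Nefh (362), Nefm (288), Stmn2 (245), Tubb2b (147), Gap43 (94.2), Basp1 (33.5), Stmn4 (6.09) and Sprr1a (0.222). Neighbours in this order that differed by less than the sum of their SDs were Nefl (± 129) and Tubb3 (± 92.4), Nefh (± 54.9) and Nefm (± 70.4), and Nefm and Stmn2 (± 19.0). With the length of the principal transcript in place of all exons, Stmn2 stood at 661 CPM per kb and moved to rank 3. In naive WT cord Nefl was again first (481 CPM per kb), followed by Nefm (237) and Tubb3 (221), and Gap43 (86.7), Stmn4 (82.2), Basp1 (75.2) and Stmn2 (70.2) lay close together. By the length of the principal transcript they did not, with Stmn2 at 190 CPM per kb (rank 4), Stmn4 at 121, Gap43 at 93.0 and Basp1 at 81.4. After SNI in WT DRG the order became Tubb3 (1438 ± 236 CPM per kb), Nefl (696 ± 157), Sprr1a (615 ± 159) and Stmn2 (472 ± 38.7), where Sprr1a differed from neither neighbour by more than the sum of their SDs. Sprr1a thus ranked 3 of 10 in injured WT DRG (4 by the length of the principal transcript) and 10 of 10 in naive WT DRG. Stmn2 ranked 2 in injured WT DRG by the length of the principal transcript, at 1276 CPM per kb.

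Set against cord in naive mice, DRG had more neurofilament, tubulin and Stmn2 transcript and less Stmn4 and Basp1. In naive KO mice 8 members were higher and 2 lower in DRG, in naive WT mice 6 were higher and 2 lower, beside 74.8% (KO) and 76.7% (WT) of all genes called different between the tissues by edgeR's quasi-likelihood test (Benjamini-Hochberg adjusted p under 0.05). Most genes were thus called, so these counts set the members little apart. Sprr1a was among the 8 in KO (log2 difference 2.69 ± 1.11 (SE), adjusted p = 0.0306), from 38 reads in naive KO DRG and 5 in naive KO cord. Its call was lost without A4, A8 or B6 (adjusted p = 0.0599 to 0.0847). All these differences rest on the 1 scale shared by both tissues. Stmn4 was the member with the strongest cord bias, with a log2 difference, DRG minus cord, of -3.34 ± 0.08 (SE) in KO and -3.75 ± 0.08 in WT. Basp1 was lower in DRG by -0.73 ± 0.09 in KO and -1.17 ± 0.09 in WT on the log2 scale. Tubb3 was higher in DRG by 2.26 ± 0.09 in KO and 1.88 ± 0.09 in WT, and Stmn2 by 1.86 ± 0.07 and 1.80 ± 0.07. Tubb2b was higher by 1.22 ± 0.06 in KO and 1.39 ± 0.06 in WT. Gap43 was higher by only 0.29 ± 0.04 in KO and 0.12 ± 0.04 in WT (adjusted p = 0.0154 in WT). Its call in WT was lost without A3, A7 or C5 (adjusted p = 0.0578 to 0.149). The neurofilament genes were higher in naive KO DRG than in naive KO cord by 1.59 (Nefl), 1.27 (Nefm) and 1.76 (Nefh), and in WT by 0.94 (Nefl) and 0.96 (Nefh), while Nefm differed by 0.28 ± 0.17 in WT and did not pass (adjusted p = 0.122).

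After SNI the growth genes were higher in the ganglion in both genotypes. All 7 members outside the neurofilament family rose in KO DRG and in WT DRG, and none of their SNI libraries overlapped with naive libraries of the same genotype. The share of all genes without such overlap was not computed, here or in the comparisons below. Separation of libraries therefore only describes the members. Sprr1a is counted here although it passed the filter on low counts only through its SNI libraries. The 3 neurofilament genes fell in KO DRG, while in WT DRG Nefl fell and Nefm and Nefh did not pass the test. Of all 19496 genes tested, 28.5% were called in KO DRG and 24.9% in WT DRG. The median log2 change of the 10 members was 0.79 in KO and 0.90 in WT, beside 0.012 and -0.011 over all genes.

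Sprr1a was near the limit of detection in naive ganglia and among the most abundant members after injury. In the KO SNI libraries it had 550, 584, 641 and 666 CPM, against 0.123, 0.207, 0.323, 0.413 and 0.640 CPM in naive KO DRG. The WT SNI libraries had 396, 448, 506 and 708 CPM, against 0.0861, 0.0883, 0.208, 0.256 and 0.285 CPM in naive WT DRG. Naive levels rest on few reads, 38 in all 5 naive KO libraries and 24 in all 5 naive WT libraries, and fitted log2 changes of 10.81 ± 0.25 in KO (adjusted p = 8.05e-16) and 11.36 ± 0.26 in WT (adjusted p = 7.91e-16) depend on the prior count of the model. These p-values carry no weight of their own, since Sprr1a was tested only because of its SNI libraries. Keratinocyte markers stayed low: the summed level of 5 keratinocyte marker genes was 2.61 to 4.60 CPM in all DRG libraries, and Krt5 was at 0 in 15 of the 18. Within the small proline-rich family, 2 of 8 other members passed the filter on low counts. Sprr1b had 0.678 to 1.03 CPM in KO SNI DRG and 0.854 to 1.74 CPM in WT SNI DRG and was at 0 in every naive DRG library. Sprr2a2 had 0.504 to 1.52 CPM in KO SNI DRG and 0 to 0.602 CPM in WT SNI DRG, with at most 0.0822 CPM in naive DRG.

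Gap43, the growth cone protein, separated injured from naive ganglia with little spread. It had 555, 594, 608 and 626 CPM in KO SNI DRG, against 161, 161, 163, 167 and 168 CPM in naive KO DRG. It had 544, 546, 590 and 628 CPM in WT SNI DRG, against 139, 147, 149, 152 and 153 CPM in naive WT DRG. Mean CPM was 3.63 times the naive level in KO and 3.9 times in WT (log2 change 1.86 ± 0.06 and 1.96 ± 0.06, adjusted p = 1.17e-14 and 6.85e-15 with edgeR). Basp1, its functional relative at the membrane, changed less, with 97.5 to 133 CPM in KO SNI against 71.3 to 92.5 CPM in naive KO DRG. In WT, Basp1 had 104 to 132 CPM in SNI DRG and 56.3 to 89.6 CPM in naive DRG. Its log2 change was 0.46 ± 0.12 in KO (adjusted p = 0.00893) and 0.76 ± 0.12 in WT (adjusted p = 0.000137).

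Both stathmins rose, Stmn4 by far the more. Stmn4 had 78.8, 81.1, 91.3 and 100 CPM in KO SNI DRG, against 13.3, 13.7, 13.8, 14.9 and 16.0 CPM in naive KO DRG. It had 92.7, 96.7, 111 and 112 CPM in WT SNI DRG, against 10.5, 11.6, 12.3, 12.7 and 13.2 CPM in naive WT DRG. The ratio of mean CPM was 6.15 in KO and 8.58 in WT. Stmn2, already the more abundant stathmin in naive ganglia, had 2804 to 2965 CPM in KO SNI against 1468 to 1561 CPM in naive KO DRG, 1.89 times as much. In WT DRG, Stmn2 ran from 2541 to 2947 CPM in SNI and from 1296 to 1574 CPM in naive libraries.

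Of the beta tubulins, Tubb2b had 814, 867, 874 and 934 CPM in KO SNI DRG, against 305, 322, 328, 347 and 350 CPM in naive KO DRG. It had 728, 777, 811 and 873 CPM in WT SNI DRG, against 337, 340, 350, 354 and 359 CPM in naive WT DRG. The groups were far apart, with ratios of mean CPM of 2.64 in KO and 2.29 in WT. Tubb3, the neuronal beta tubulin used to label axons, rose with more spread, at 2697 to 3261 CPM in KO SNI against 1678 to 2148 CPM in naive KO DRG. WT SNI libraries had 2250 to 3351 CPM of Tubb3, against 1324 to 1757 CPM in naive WT libraries.

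**Figure D1:**
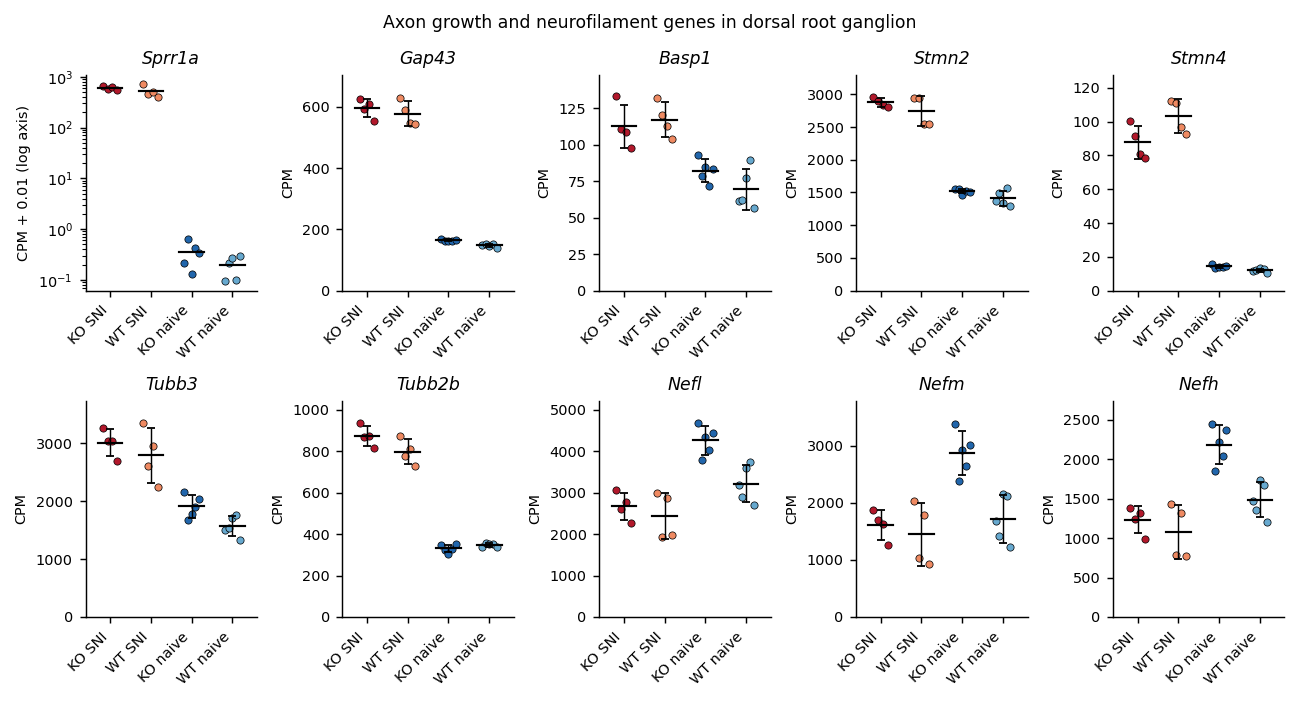
CPM of the 10 members in each DRG library (points) by group, with the mean and SD (bars; the mean alone for Sprr1a); KO SNI and WT SNI stand left of KO naive and WT naive, and the Sprr1a axis is a log axis to which 0.01 CPM was added. SNI libraries lie above the naive libraries of their genotype for the 7 members outside the neurofilament family, and naive KO libraries are the highest for Nefl, Nefm and Nefh.

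Neurofilament transcripts fell in KO DRG. Nefh had 990, 1239, 1319 and 1385 CPM in KO SNI DRG, against 1847, 2037, 2216, 2365 and 2452 CPM in naive KO DRG. Nefm had 1262, 1629, 1698 and 1882 CPM in KO SNI DRG, against 2378, 2646, 2927, 3021 and 3386 CPM in naive KO DRG. Nefl had 2267, 2603, 2763 and 3053 CPM in KO SNI DRG, against 3781, 4037, 4345, 4448 and 4688 CPM in naive KO DRG. No KO SNI library reached a naive KO library for any of the 3, and the log2 changes were -0.82 ± 0.17 for Nefh (adjusted p = 0.0015), -0.83 ± 0.22 for Nefm (adjusted p = 0.00807) and -0.67 ± 0.14 for Nefl (adjusted p = 0.000973).

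In WT DRG the neurofilament values of injured and naive libraries overlapped. Nefl had 1935 (E3), 1980 (F3), 2861 (F1) and 2985 (E1) CPM in WT SNI DRG, against 2696, 2891, 3196, 3587 and 3729 CPM in naive WT DRG. Nefm had 931 (F3), 1037 (E3), 1793 (F1) and 2037 (E1) CPM in WT SNI DRG, against 1222, 1420, 1677, 2118 and 2151 CPM in naive WT DRG. Libraries E3 and F3 were low and E1 and F1 high for all 3 chains, since Nefh had 773 (F3), 788 (E3), 1323 (F1) and 1430 (E1) CPM in WT SNI DRG, against 1205 to 1742 CPM in naive WT DRG. The log2 changes were -0.40 ± 0.14 for Nefl (adjusted p = 0.0365), -0.24 ± 0.22 for Nefm (adjusted p = 0.466) and -0.47 ± 0.17 for Nefh (adjusted p = 0.0573). The Nefl call was lost without any 1 of A1, B1, B3, E3 or F3 (log2 change -0.29 to -0.39, adjusted p = 0.0598 to 0.132), and Nefh passed without C1, E1 or F1 (-0.53, -0.61 and -0.56). Nefh also passed in 3 of 6 other settings, with DESeq2 (-0.46, adjusted p = 0.0391), limma (-0.51, adjusted p = 0.0344) and scaling to neuronal markers (-0.43, adjusted p = 0.00808). Nefl missed the threshold in 2 of the 6, with no filter on low counts (-0.39, adjusted p = 0.0522) and with only the groups compared in the fit (-0.39, adjusted p = 0.122), and Nefm in all 6. The difference between the genotypes in these changes was tested and did not pass, as given further on.

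Markers of other cells moved with the injury as well. All 8 markers of macrophages and microglia rose in both genotypes, with summed levels of 306 to 383 CPM in KO SNI against 82.6 to 140 CPM in naive KO DRG, and of 341 to 571 CPM in WT SNI against 118 to 219 CPM in naive WT DRG. Of 12 general neuronal markers, 0 rose and 4 fell in KO DRG and 2 rose and 3 fell in WT DRG. Their sum was 4028 to 4697 CPM in KO SNI, 3229 to 4511 CPM in WT SNI, 4829 to 5512 CPM in naive KO and 3382 to 4668 CPM in naive WT DRG. Of 9 markers of large myelinated afferents, the neurons richest in neurofilament, 7 fell in KO DRG (sum 1069 to 1115 CPM in SNI against 1436 to 1498 CPM in naive libraries), and 5 fell and 1 rose in WT DRG (1010 to 1211 CPM against 1341 to 1501 CPM). Of 8 nociceptor markers, 6 fell in KO and 5 in WT DRG, and none rose. No marker of these 4 lists was at 0 in any DRG library. When library size was replaced by the summed general neuronal markers, the 3 neurofilament genes still fell in KO DRG (-0.47 for Nefl, -0.62 for Nefm and -0.62 for Nefh) while the median of all genes moved to 0.22. In WT DRG, where that scaling put the median of all genes at 0.05, Nefl (-0.35) and Nefh (-0.43) fell and Nefm (-0.21, adjusted p = 0.383) did not pass.

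**Figure D2:**
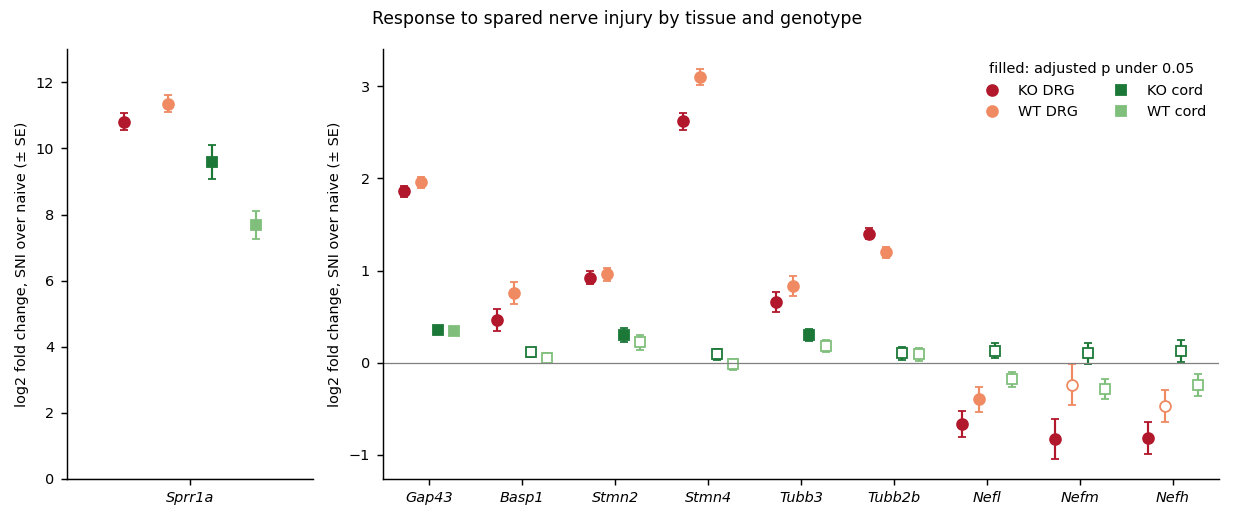
Log2 fold change of each member, SNI minus naive, with its SE (bars), in KO and WT DRG and in KO and WT cord. In DRG the 7 members outside the neurofilament family lie above 0 in both genotypes and the neurofilament genes below it; in cord Sprr1a and Gap43 pass the test in both genotypes.

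Before injury, KO ganglia had more neurofilament transcript than WT ganglia. In naive DRG, 6 of the 10 members were called higher and none lower in KO, and 28.2% of all genes were called in either direction. Nefm, the medium chain, had 2378, 2646, 2927, 3021 and 3386 CPM in naive KO DRG, against 1222, 1420, 1677, 2118 and 2151 CPM in naive WT DRG. Nefh had 1847 to 2452 CPM in naive KO against 1205 to 1742 CPM in naive WT, and Nefl 3781 to 4688 CPM against 2696 to 3729 CPM. Each of the 3 chains was higher in every naive KO library than in any naive WT library, by 0.74 ± 0.20 for Nefm (adjusted p = 0.0153), 0.55 ± 0.16 for Nefh (adjusted p = 0.0203) and 0.40 ± 0.13 for Nefl (adjusted p = 0.0264) on the log2 scale. Gap43 (0.15 ± 0.05, adjusted p = 0.0425), Stmn4 (0.25 ± 0.09, adjusted p = 0.0385) and Tubb3 (0.28 ± 0.10, adjusted p = 0.0483) were higher by less, Tubb3 with overlapping libraries. Sprr1a (0.79 ± 0.52), Basp1 (0.24 ± 0.12), Stmn2 (0.11 ± 0.06) and Tubb2b (-0.07 ± 0.06) did not pass.

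The composition of these naive libraries differed too. Of 12 general neuronal markers, 6 were higher and 1 lower in naive KO DRG (4829 to 5512 CPM in sum, against 3382 to 4668 CPM in naive WT). Of 9 markers of large myelinated afferents, 6 were higher and 2 lower (1436 to 1498 CPM in sum, against 1341 to 1501 CPM). Among 7 markers of satellite glia and astrocytes, 4 were higher and 1 lower (919 to 1084 CPM, against 930 to 1328 CPM). The sums of these last 2 lists overlapped between the genotypes. All 5 blood markers were lower in naive KO (191 to 610 CPM in sum, against 737 to 3540 CPM in naive WT, with C1 the highest), and so were 5 of 8 markers of macrophages and microglia, 5 of 5 of neutrophils, 4 of 5 of endothelium and 4 of 5 of fibroblasts. None of these markers was at 0 in any DRG library. Relative to the general neuronal markers, a scaling under which the median of all genes was -0.37, Nefm remained higher in naive KO DRG (log2 difference 0.42, adjusted p = 0.0124). Nefh (0.22) and Nefl (0.07) no longer passed under it. Gap43 (-0.20), Stmn2 (-0.24) and Tubb2b (-0.43) were then called lower in KO, and Stmn4 (-0.09) and Tubb3 (-0.06) were below 0 without passing. The part of tissue composition in the naive genotype differences was not tested further. Without the doubly labelled A2 and A4, or without any 1 of A2, A3 and C1, Nefm was the single member called. Nefm was called in each of the 10 fits that left out 1 naive library.

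**Figure D3:**
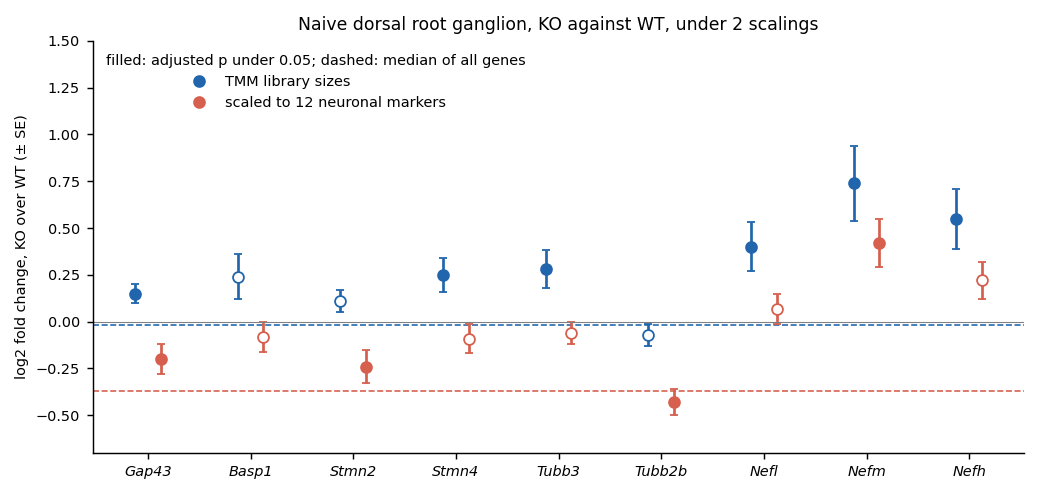
Log2 difference, KO minus WT, of 9 members (all but Sprr1a) in naive DRG with its SE (bars), with TMM scaling and with scaling to 12 general neuronal markers. Nefl, Nefm and Nefh lie above 0 under both scalings, and of these Nefm alone passes the test under both. Gap43, Basp1, Stmn2, Stmn4 and Tubb3 lie above 0 under TMM scaling and below it under the other.

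After injury no member passed the test between the genotypes in DRG with TMM scaling. With edgeR, 0 of 10 members were called in SNI DRG, 1 had an unadjusted p under 0.05, DESeq2 and limma called 0, and 5.1% of all genes were called. The member nearest to a call was Stmn4, at 78.8 to 100 CPM in KO SNI against 92.7 to 112 CPM in WT SNI (log2 difference -0.23 ± 0.09, adjusted p = 0.134). Scaled to the general neuronal markers, which moved the median of all genes to -0.19, Stmn4 was called lower in KO (-0.43 ± 0.08, adjusted p = 0.00333), the single member called in that fit. Nefm had a log2 difference of 0.16 ± 0.23 and its libraries overlapped. The test of the difference itself, the interaction of genotype and injury, called 0 members with edgeR, DESeq2 or limma, 2 had an unadjusted p under 0.05, and 0.0256% of all genes were called. Its values were -0.48 ± 0.12 for Stmn4 (unadjusted p = 0.000927, adjusted p = 0.42), -0.58 ± 0.31 for Nefm (adjusted p = 0.847) and 0.20 ± 0.09 for Tubb2b (adjusted p = 0.835). The lower neurofilament levels after SNI in KO DRG and not throughout in WT DRG are therefore not shown to be a difference between the genotypes.

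Across DRG libraries of a group, most members moved together with the neuronal markers, Tubb3 and the neurofilament genes most closely. After each group's mean was subtracted from log2(CPM + 1), Nefm followed Nefl (Pearson r = 0.98, Spearman rho = 0.96) and Nefh (r = 0.98, rho = 0.97) over 18 libraries, with a permutation p within groups of 1e-05 for each r, the smallest that 100000 permutations can give. Nefl and Nefm share exonic bases, while Nefh lies on another chromosome. Nefm followed the summed general neuronal markers with r = 0.94 and rho = 0.96, and Tubb3 with r = 0.96 and rho = 0.96 (permutation p = 1e-05 for each r, 3.5e-05 adjusted over 14 relations). Without the 2 libraries farthest from the median of the marker sum, r was 0.92 for Nefm and 0.94 for Tubb3. Gap43 followed the same sum less closely (r = 0.68, rho = 0.58, permutation p = 0.0157, adjusted p = 0.0183), and r was 0.52 without the 2 farthest libraries. Basp1 (r = 0.81), Tubb2b (r = 0.75) and Stmn4 (r = 0.74) followed the sum too, more closely than Stmn2 (r = 0.5) and Sprr1a (r = 0.37), without a test. Nefm was inversely related to the summed blood markers (r = -0.69, rho = -0.65, permutation p = 0.0055, adjusted p = 0.007; r = -0.63 without the 2 farthest). Stmn4 (r = -0.84), Basp1 (r = -0.81) and Tubb3 (r = -0.8) were so more closely, without a test. The neuronal and blood sums were themselves inversely related (r = -0.8). All values of a library share its depth and its tissue composition. The 14 relations were chosen with earlier results of these data known, and neither the permutation p nor its adjustment covers that choice.

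**Figure D4:**
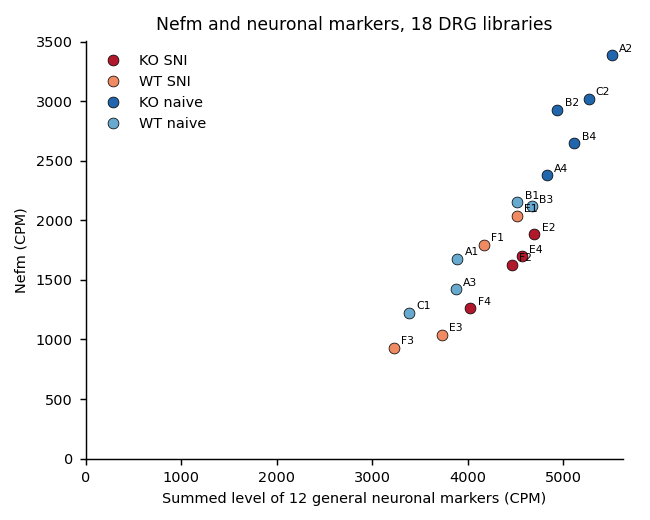
Nefm (CPM) against the summed CPM of 12 general neuronal markers in the 18 DRG libraries, by group. Within each group Nefm is higher where the marker sum is higher, and in WT SNI the libraries F3 and E3 lie at the low end of both.

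The genes with the DRG profile most like that of a member were read from Pearson's r of log2(CPM + 1) over the 18 DRG libraries, among 14818 genes. Sprr1a was most like Atf3 (r = 0.999), AC121603.3 (0.998) and Gpr151 (0.998), and Gap43 most like Ecel1 (0.999), Atf3 (0.998) and AC121603.3 (0.996). Atf3, a transcription factor switched on by nerve injury, averaged 368 CPM in KO SNI and 346 CPM in WT SNI DRG, against 7.13 CPM in naive KO and 5.7 CPM in naive WT DRG. Nefh was most like Scn4b (0.992), a sodium channel beta subunit, Cnnm1 (0.988) and 2900011O08Rik (0.988). With group means subtracted, the genes most like Nefh were Ak5 (0.987), Gak (0.982) and Snap25 (0.982), a synaptic vesicle fusion protein that is also one of the neuronal markers. Genes picked as the highest of many correlations are a description.

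In the cord, where the central ends of the injured sensory neurons and the spinal neurons are sampled together, the response was small apart from Sprr1a. In KO cord 4 members rose after SNI (Sprr1a, Gap43, Stmn2 and Tubb3) and none fell, beside 4.42% of all 18843 genes called. In WT cord 2 rose (Sprr1a and Gap43) and none fell, beside 2.88% of all genes. Both counts include Sprr1a, which passed the filter on low counts only through its SNI libraries. Sprr1a had 30.7, 33.8, 36.1 and 54.9 CPM in KO SNI cord, against 0, 0, 0.0467, 0.0865 and 0.0892 CPM in naive KO cord, where 5 reads were counted in all. It had 22.7, 33.8, 45.5 and 51.8 CPM in WT SNI cord, against 0.0446, 0.0809, 0.0866, 0.217 and 0.487 CPM in naive WT cord, from 21 reads in all. Every SNI library was far above every naive library in both genotypes. Keratinocyte markers summed to 8.55 to 11.3 CPM over all cord libraries, and none of the 3 tested there was called.

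Gap43 rose in cord by a small and even step. It had 157, 158, 167 and 170 CPM in KO SNI cord, against 120, 126, 127, 129 and 135 CPM in naive KO cord. It had 154, 155, 167 and 172 CPM in WT SNI cord, against 123, 128, 128, 130 and 133 CPM in naive WT cord. No SNI library overlapped with a naive one, and the log2 change was 0.35 ± 0.04 in KO (adjusted p = 1.06e-06) and 0.34 ± 0.04 in WT (adjusted p = 3.21e-06). Stmn2 had 465 to 549 CPM in KO SNI cord against 381 to 419 CPM in naive KO cord (log2 change 0.30 ± 0.08, adjusted p = 0.0321), and Tubb3 448 to 509 CPM against 341 to 400 CPM (0.30 ± 0.07, adjusted p = 0.0244). Both calls in KO cord were lost in some fits without 1 library, Stmn2 without A6, A8, B6, B8, E6 or E8 and Tubb3 without A8, B8, E6 or F6 (adjusted p = 0.0535 to 0.133). In WT cord Stmn2 (0.22 ± 0.08, adjusted p = 0.227) and Tubb3 (0.18 ± 0.07, adjusted p = 0.366) did not pass, though both did when scaled to neuronal markers (0.31 and 0.27). Basp1, Stmn4 and Tubb2b changed by -0.02 to 0.11 on the log2 scale in either genotype and did not pass.

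Neurofilament values in cord did not pass in either genotype. The log2 changes after SNI were 0.13 ± 0.08 (Nefl), 0.10 ± 0.11 (Nefm) and 0.13 ± 0.12 (Nefh) in KO cord, and -0.18 ± 0.08, -0.29 ± 0.11 and -0.24 ± 0.12 for the same chains in WT cord. Nefl had 1374, 1423, 1474 and 1625 CPM in KO SNI cord and 1222, 1289, 1430 and 1657 CPM in WT SNI cord, against 1299 to 1427 CPM in naive KO and 1428 to 1853 CPM in naive WT cord. Nefm reached the threshold in WT cord without E5 (-0.40, adjusted p = 0.0486). All 7 tested markers of macrophages and microglia rose in both genotypes, to sums of 407 to 422 CPM in KO SNI and 403 to 449 CPM in WT SNI cord, against 153 to 182 CPM in naive KO and 182 to 213 CPM in naive WT cord, and Ms4a7 was not tested there. Of 7 markers of satellite glia and astrocytes, Gfap and Aqp4 rose in both genotypes and none fell, with sums of 5037 to 5284 CPM in KO SNI and 5063 to 5251 CPM in WT SNI cord, against 3774 to 4145 CPM in naive KO and 4194 to 4383 CPM in naive WT cord. Of 7 tested nociceptor markers Tac1 alone was called, higher in both genotypes, and the sum of the list was 88.5 to 117 CPM in KO SNI and 68.0 to 98.0 CPM in WT SNI cord, against 62.2 to 70.4 CPM in naive KO and 63.1 to 73.2 CPM in naive WT cord. Their part in the member values was not tested.

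In naive cord 2 of 10 members, Basp1 and Nefl, were called lower in KO than in WT and none higher. That count was close to the share over all genes, of which 19.7% were called. Basp1 had 126, 126, 129, 129 and 142 CPM in naive KO cord, against 140, 144, 147, 149 and 154 CPM in naive WT cord (log2 difference -0.17 ± 0.04, adjusted p = 0.00703), with 1 KO library inside the WT range. Nefl had 1299, 1307, 1339, 1359 and 1427 CPM in naive KO cord, against 1428, 1511, 1542, 1571 and 1853 CPM in naive WT cord (-0.23 ± 0.08, adjusted p = 0.0469), so that the highest KO and the lowest WT library nearly met. Among the fits without 1 naive library, the Nefl call was kept only without A5 (adjusted p = 0.0502 to 0.129 without any other), and scaled to neuronal markers neither Basp1 (-0.08) nor Nefl (-0.13) passed. Markers of other cells differed as well: 4 of 5 blood markers were lower in naive KO cord and none higher (137 to 172 CPM in sum, against 170 to 482 CPM in naive WT cord), and of 7 tested markers of macrophages and microglia 2 were lower (C1qa and C1qb; 153 to 182 CPM for the list, against 182 to 213 CPM). Of satellite glia and astrocyte markers 2 were lower (Gfap and Kcnj10) and 1 higher (Glul), and of 12 general neuronal markers 2 were lower and 1 higher. None of the blood or glial markers was at 0 in a naive cord library, and their part in these differences was not tested. Stmn4 was just outside the threshold (-0.15 ± 0.05, adjusted p = 0.0535) and passed without C6 (-0.21, adjusted p = 0.00171). After SNI 0 of 10 members were called between the genotypes in cord with edgeR, DESeq2 or limma, 1 had an unadjusted p under 0.05 (Basp1, -0.12 ± 0.05), and 6.26% of all genes were called.

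The interaction of genotype and injury in cord called 0 members and 0.0% of all genes with edgeR, and 0 members with DESeq2 or limma. The 3 neurofilament genes were the members with an unadjusted p under 0.05, at 0.31 ± 0.12 (Nefl), 0.39 ± 0.15 (Nefm) and 0.37 ± 0.17 (Nefh), with adjusted p from 0.74 to 0.812. In 18 cord libraries, with group means subtracted, Stmn2 followed Chat, the acetylcholine synthesis enzyme of motor neurons (r = 0.89, rho = 0.78, permutation p = 0.00026, adjusted p = 0.00052; r = 0.78 without the 2 farthest libraries). Tubb3 (r = 0.85, rho = 0.84, permutation p = 0.00043), Nefl (r = 0.84, rho = 0.85, permutation p = 0.00083) and Nefh (r = 0.83, rho = 0.81, permutation p = 0.00067) did likewise, and r was 0.76, 0.80 and 0.76 for them without the 2 farthest. Gap43 (r = 0.42, rho = 0.39, permutation p = 0.188) and Sprr1a (r = 0.63, rho = 0.40, permutation p = 0.0565) did not pass. The summed level of 6 motor neuron markers ran from 113 to 169 CPM in KO SNI, 47.3 to 151 CPM in WT SNI, 92.1 to 120 CPM in naive KO and 83.3 to 154 CPM in naive WT cord, and none of them was called in a cord comparison. The part of motor neurons in the member values was not tested further. The relations with Chat were also chosen with earlier results of these data known, which their p-values do not cover.

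**Figure D5:**
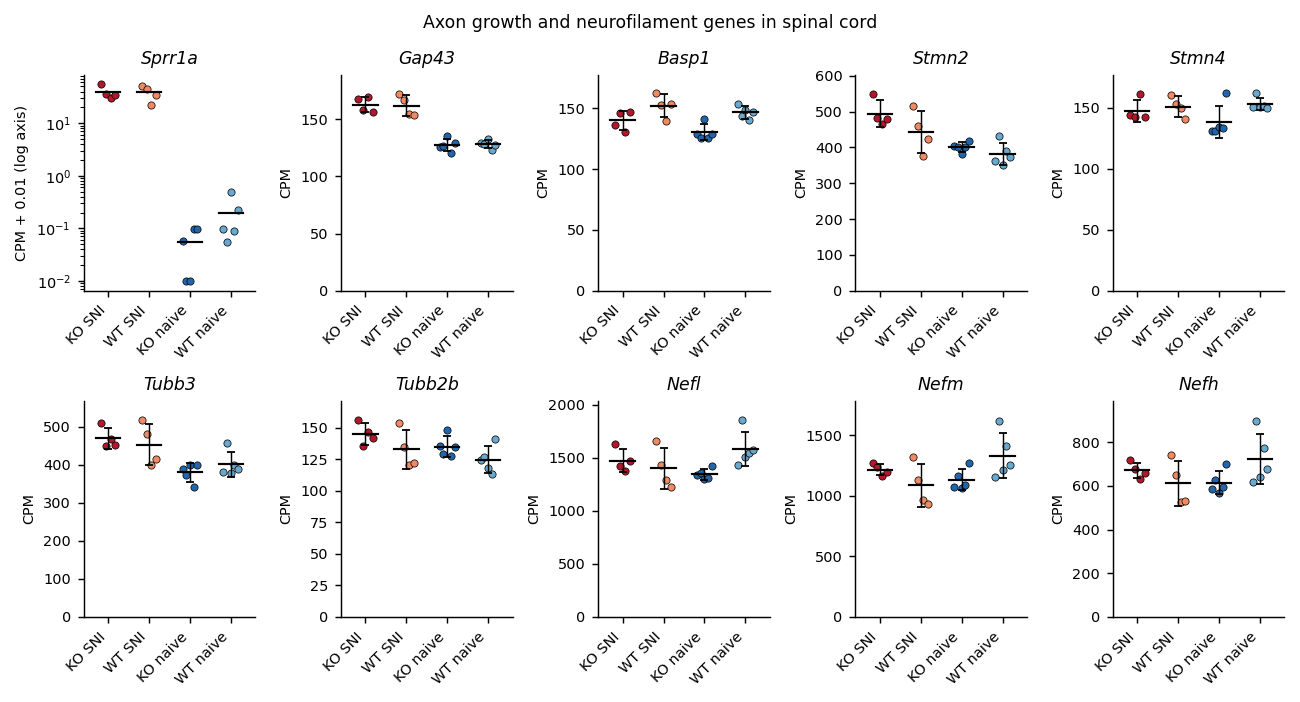
CPM of the 10 members in each cord library (points) by group, with the mean and SD (bars; the mean alone for Sprr1a); KO SNI and WT SNI stand left of KO naive and WT naive, and the Sprr1a axis is a log axis to which 0.01 CPM was added. Sprr1a and Gap43 are higher in every SNI library than in any naive library of the same genotype, and so are Stmn2 and Tubb3 in KO. Stmn2 and Tubb3 in WT and the other members in both genotypes overlap between SNI and naive libraries.

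The response to injury was larger in DRG than in cord for most growth genes, by the test of the difference between the tissues. This difference (DRG change minus cord change, log2 scale) was called for 7 of 10 members in both genotypes, beside 17.2% of all 20626 genes in KO and 12.5% in WT. The count in WT includes Sprr1a, which passed the filter on low counts only through its SNI libraries. Stmn4 differed by 2.48 ± 0.11 in KO and 3.11 ± 0.11 in WT, and Gap43 by 1.47 ± 0.07 and 1.61 ± 0.07. Tubb2b (1.26 ± 0.10 in KO, 1.10 ± 0.10 in WT) and Stmn2 (0.58 ± 0.10 in KO, 0.73 ± 0.10 in WT) passed in both genotypes. Basp1 (0.69 ± 0.14) and Tubb3 (0.64 ± 0.14) passed in WT and not in KO (0.31 ± 0.14, adjusted p = 0.119, and 0.32 ± 0.14, adjusted p = 0.111). The neurofilament genes passed in KO, with -0.84 ± 0.16 (Nefl), -0.97 ± 0.25 (Nefm) and -0.99 ± 0.21 (Nefh), and not in WT, with -0.24, 0.03 and -0.24. The value of Sprr1a, 3.65 ± 1.05 in WT (adjusted p = 0.0172) and 1.18 ± 1.81 in KO, rests on the few naive reads in cord and was not called in WT without cord library B5 (2.95, adjusted p = 0.176). Whether these tissue differences differ between the genotypes was not tested.

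The light chain was the most abundant of the 3 neurofilament transcripts per length in every group. As a share of the CPM per kb of the 3 genes together, Nefl made up 57.4% ± 1.2 in KO SNI, 58.7% ± 3.14 in WT SNI, 54.8% ± 0.971 in naive KO and 58.9% ± 1.48 in naive WT DRG (SD, n = 4 for SNI and 5 for naive). Nefm made up 20.2% ± 0.988, 19.7% ± 2.19, 21.5% ± 0.728 and 18.1% ± 1.59 in the same groups of DRG, so that naive KO libraries (20.6 to 22.6%) lay above naive WT libraries (16.1 to 19.9%). In cord the Nefm share was higher, at 25.8% ± 0.772 in KO SNI, 24.8% ± 0.33 in WT SNI, 26.2% ± 0.546 in naive KO and 26.2% ± 0.77 in naive WT. Shares depend on the length used: with the principal transcript, the Nefm share was 27.7% ± 2.14 in naive WT DRG and 38.0% ± 0.896 in naive WT cord.

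Related genes were read from 4 further lists, beside 28.5% of all genes called in KO DRG and 24.9% in WT DRG after SNI. Of 11 genes of the growth cone and membrane, 6 rose and 1 fell in KO DRG after SNI and 7 rose and 2 fell in WT DRG, where the cell adhesion molecule Chl1 rose by 2.23 ± 0.07 in KO and 1.72 ± 0.07 in WT on the log2 scale. Marcksl1 rose by 0.93 and 0.99 and Marcks by 0.63 and 0.51 in KO and in WT; both encode membrane proteins that bind actin. Of 18 microtubule genes, 8 rose in KO DRG and 7 in WT DRG and none fell; Tubb6, a beta tubulin, rose by 2.65 ± 0.09 in KO and 2.44 ± 0.09 in WT, Tubb2a by 0.83 and 0.80 and Tuba1a by 0.64 and 0.60. Of 6 other intermediate filament genes 1 rose in each genotype, vimentin (Vim, 0.46 in KO and 0.40 in WT), and none fell. All 9 other regeneration-associated genes rose in both genotypes, among them Gadd45a (2.56 in KO, 2.46 in WT), the urokinase receptor gene Plaur (2.73 and 2.39) and the laminin receptor subunit Itga7 (1.82 and 1.89). The medians of these lists, in that order, were 0.34, 0.15, 0.05 and 1.58 in KO DRG and 0.49, 0.19, 0.02 and 1.11 in WT DRG, beside medians of all genes near 0.

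In naive DRG, where 12.8% of all genes were called higher and 15.4% lower in KO, the same lists had calls in both directions, 3 of 11 growth cone genes higher and 3 lower in KO, 6 of 18 microtubule genes higher and 1 lower, 0 of 6 other intermediate filament genes and 2 of 9 regeneration-associated genes higher and 1 lower. Cap2, an actin regulator, was higher in naive KO DRG by 0.88 ± 0.11 (adjusted p = 3.28e-05) and Fgf2 by 0.92 ± 0.09 (adjusted p = 1.6e-06), while Dcx, a microtubule protein of young neurons, was lower by -0.61 ± 0.10 (adjusted p = 0.00048) and Plaur by -1.13 ± 0.25 (adjusted p = 0.00467). In SNI DRG, Fgf2 (0.80 ± 0.10) and Plaur (-0.78 ± 0.22) were again the members of that list called, and no gene of the other 3 lists was.

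In cord after SNI, where 4.42% of all genes were called in KO and 2.88% in WT, the growth cone list had 1 of 11 genes higher in KO (Chl1, 0.19 ± 0.06) and 1 in WT (Marcks, 0.19 ± 0.05), and the microtubule list 1 of 18 in each, Tubb6 (1.15 ± 0.15 in KO and 0.98 ± 0.15 in WT). No other intermediate filament gene was called there. Of 8 regeneration-associated genes tested in cord, 6 rose in KO and 5 in WT and none fell, with Il6ra (0.83 in KO, 0.92 in WT), Cd44 (0.70 and 0.72) and Itga7 (0.94 and 0.96) in both. In naive cord, where 9.79% of all genes were called higher and 9.94% lower in KO, 3 of 6 other intermediate filament genes were lower in KO (Synm -0.29 ± 0.05, Ina -0.14 ± 0.04 and Nes -0.61 ± 0.18), beside 4 lower and 1 higher of 18 microtubule genes, among them Tuba1a (-0.26 ± 0.06) and Tuba1b (-0.18 ± 0.05). Of 11 growth cone genes 3 were higher in naive KO cord (Cap2 0.22, L1cam 0.13 and Gpm6a 0.12) and none lower.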

How the data were processed

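Per the labels' protocols, 36 libraries of ganglion or cord RNA were made with a stranded TruSeq mRNA kit. The submitters' processing notes name HISAT2, RSEM, FastQC 0.11.5 and the build GRCm38, while the annotation, the versions of RSEM and HISAT2 and the strand setting are not given in the sources used here. Deposited by the authors was a raw table that holds expected counts (estimated reads per gene, not all whole) for 55487 genes. In 1 deposited column (library E1) 9150 cells had decimal commas, read as points, and 1 lost cell was restored as 1780.86 from the normalised table. That second table, deposited by the authors for 52999 genes, holds signal values, each raw column being multiplied by 1 factor from the trimmed mean of M values (TMM), and otherwise served only for the limma alternative.

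Expected counts were rounded to whole numbers. Each tissue was fitted alone (18 libraries, 4 groups) with edgeR 4.0.16 in R 4.3.3 (TMM, filterByExpr over the groups, robust quasi-likelihood F tests), leaving 19496 genes in DRG and 18843 in cord, and tissues were compared in 1 fit of all 36 libraries (20626 genes). p values were adjusted by Benjamini-Hochberg over all genes tested and a gene was called at an adjusted p under 0.05. A value after ± is the SE (log2 fold change over the root of F) for log2 fold changes and the SD for levels. CPM used TMM library sizes of the tissue. The fits were tested on simulated data. Alternatives used DESeq2 1.42.0, limma 3.58.1 on log2(value + 1), other size factors, no filter, only the groups compared, general neuronal markers as library size, omission of A2 and A4, replicate blocks and leaving out each library. Names came from GENCODE M21 for 55227 genes, and promoters from RefSeq (GRCm38.p6). Libraries held 21.34 to 27.27 M estimated reads, and the common dispersion gave a coefficient of variation between libraries of 0.0744 (cord) and 0.131 (DRG).

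The members, gene lists, relations and alternatives were chosen with earlier results of these data known. Open to being named were the 10 members in every comparison and the 3 called genes of each wider list with the lowest adjusted p per comparison. The 3 genes most like Sprr1a, Gap43 and Nefh were added, among genes whose mean CPM had a log2 of at least 1. That mean covered all 18 DRG libraries, so a gene such as AC121603.3 could enter through its SNI libraries alone. Markers, Sprr1b, Sprr2a2 and Chat were named after their values were seen. The knocked-out gene is not reported here.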

Additional observations from a re-analysis of the deposited data

Results flagged for a closer look

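In 80 groups of values (each member in each group of libraries), 5 had 1 library whose gap to the nearest other was large against the whole range, where chance gives about 1 in 20. All 5 were in cord. Basp1 in naive KO cord had 142 CPM in B6, against 126 to 129 CPM in the other libraries. Stmn4 had 161 CPM in F6 of KO SNI cord (others 142 to 144 CPM), 162 CPM in C6 of naive KO cord (others 131 to 134 CPM) and 162 CPM in A7 of naive WT cord (others 150 to 152 CPM). Tubb3 in naive WT cord had 458 CPM in A7, against 379 to 399 CPM in the others. Without C6, Stmn4 was called lower in naive KO than in naive WT cord (-0.21, adjusted p = 0.00171) and higher in SNI than in naive KO cord (0.15, adjusted p = 0.0489).

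The injury response differed between DRG and cord, by the test of the difference of log2 changes (DRG minus cord, edgeR), for 7 members in each genotype. In KO these were Gap43 (1.47), Stmn2 (0.58), Stmn4 (2.48), Tubb2b (1.26), Nefl (-0.84), Nefm (-0.97) and Nefh (-0.99). In WT they were Sprr1a (3.65), Gap43 (1.61), Basp1 (0.69), Stmn2 (0.73), Stmn4 (3.11), Tubb3 (0.64) and Tubb2b (1.1). Sprr1a passed the filter on low counts only through its SNI libraries, and its call was lost without cord library B5 (2.95, adjusted p = 0.176).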

How the results depend on the processing

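Of 888 log2 changes of members refitted under other settings, 837 kept direction and side of the threshold, 19 lost and 11 gained a call, 17 that missed the threshold either way changed sign and 4 that were called reversed, all 4 in naive DRG, KO against WT, with neuronal markers as library size (Gap43 -0.20, Stmn2 -0.24, Stmn4 -0.09, Tubb3 -0.06). In that comparison the count of members called was 1 without A2 and A4 and 1 to 7 without 1 library (6 with all), and all genes called were 2626 without A2 and A4, 11272 with neuronal scaling and 3032 to 6638 without 1 library (5506 with all). In WT DRG, SNI against naive, 3216 genes were called with only the groups compared (4864 with all groups). For KO against WT in SNI DRG, neuronal scaling called 1 member (Stmn4), and all genes called were 649 with only the groups compared and 615 to 1703 without 1 library (994 otherwise). The DRG interaction called 25 genes with DESeq2, 2 without A2 and A4, 2 with neuronal scaling, 0 with the replicate block and 1 to 7 without 1 library (5 otherwise). In WT cord, SNI against naive, neuronal scaling called 4 members and 823 genes (2 and 543 otherwise). In KO cord, SNI against naive, 2 members were called without the filter and 2 to 5 without 1 library (4 otherwise). In naive cord, KO against WT, 1 member was called without the filter, 1 with neuronal scaling and 1 to 2 without 1 library (2 otherwise). By principal transcript, 43 of 80 levels and 0 of 24 neurofilament shares stayed within 1 SD. Numbers in the column names have no stated meaning and did not reach r over 0.1 in every pair, by deviations from group means: KO and WT libraries of a number correlated at -0.233 to 0.397 (4 of 18 over 0.1), DRG and cord libraries at -0.003 to 0.399 (14 of 18), and 15 of 18 DRG libraries were closest to the cord library of their own number within the group, a hint from the data that the number links the tissues. With the number as replicate block, 7 members were called for the DRG against cord response in either genotype, as without it, and it changed no count of members by over 1.5 times. The cause of these changes was not tested. Sprr1a in naive tissue, at 0 to 14 reads per library, is the member limited by depth.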
